A study of Homo sapiens with 3 samples.

Results

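The genes described here are 10 members of the Notch signalling pathway in KMS11 cells: the ligands JAG1, JAG2 and DLL1, the receptors NOTCH1, NOTCH2 and NOTCH3, the nuclear proteins RBPJ and MAML1, and the target genes HES1 and HEY1. They were taken by symbol, with every probe set whose single gene symbol is one of the 10. This gave 27 probe sets of 54613, and 10 genes of 19775. KMS11 is an established human multiple myeloma line with the t(4;14) translocation, which places the histone methyltransferase gene MMSET (current symbol NSD2) under immunoglobulin enhancers. The cells were infected with lentiviruses and total RNA was taken at 48 h. The groups were shMMSET#2 and shMMSET#4, each a hairpin RNA against MMSET, and shLuc, a hairpin labelled for luciferase that served as their common control. All groups therefore carried a lentiviral hairpin, and an uninfected array is not part of the comparison. There was 1 array per group, so nothing here has a replicate check, and "lower" and "higher" describe these 3 arrays of 1 cell line. Both hairpins were compared with the same shLuc array, so a high or low shLuc signal moves both ratios alike.

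Notch receptors are cut by ADAM proteases and gamma-secretase once a ligand on a neighbouring cell binds them. The freed intracellular part enters the nucleus, joins the DNA-binding protein RBPJ and a Mastermind coactivator such as MAML1, and turns on genes of the HES and HEY families, which encode basic helix-loop-helix repressors. In myeloma the pathway is known for JAG2 on the malignant plasma cells and for signalling between these cells and the marrow stroma.

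The values are MAS5 signals, linear brightness values per probe set, which as deposited share the same trimmed mean on every array. Signals up to the 40th percentile of all arrays, 41.2, were set to that floor, and ratios to shLuc were taken on the log2 scale. Where one side sat at the floor, the ratio is a lower limit, given here as "at least". A probe set was tested if it lay above the median signal of its array on at least 1 array, and was called at a 2-fold difference. With no replicates, the only yardstick is how far the shMMSET#4 and shMMSET#2 arrays lay from each other, and true effects of the hairpins enter it too. The tested probe sets were put in 10 bins of signal. In each bin, 95% had hairpin arrays within a fold of each other that ran between 1.82-fold in the brightest bin and 2.92-fold among dim probe sets. This value is called the hairpin spread below, and it is a description rather than a test.

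On the arrays as a whole, the targeted gene NSD2 had lower signals with the hairpins. Its 6 probe sets had a median log2 ratio of -1.33 with shMMSET#2 (SD 0.99, lower on 6) and -0.48 with shMMSET#4 (SD 0.59, lower on 5). All 9 markers of myeloma plasma cells were above the floor on every array, among them SDC1 with signals of 3338, 3646 and 4166 and CD38 with signals of 129, 151 and 94.4 on the shMMSET#2, shMMSET#4 and shLuc arrays. Of 15 markers of B cells, T cells, myeloid cells, stroma and endothelium, 6 were above the floor with shMMSET#2, 5 with shMMSET#4 and 10 with shLuc. Their summed signal was 1128, 1156 and 1580 on these arrays, and PECAM1, an endothelial marker that plasma cells can also express, had 295, 618 and 601. The plasma cell markers summed to 55422 with shMMSET#2, 94301 with shMMSET#4 and 93316 with shLuc. Of the 9, 3 (SLAMF7, IRF4 and PRDM1) were at least 2-fold lower with shMMSET#2, against 10.7% of all tested genes. MZB1 was the 1 past 2-fold with shMMSET#4, at 3.53-fold higher. The median probe set signal was 62.0, 59.5 and 77.4, and the log2 difference between the 3' and 5' control probe sets of ACTB was 1.14, 1.14 and 1.70. For GAPDH this difference was 0.103, 0.002 and 0.042, with shLuc between the hairpin arrays. The shLuc array stood apart from both hairpin arrays in median signal and in ACTB, and shMMSET#2 in the sum of its plasma cell markers. Their part in the ratios below was not tested. In RNA from whole cultures, fewer cells of a type and less RNA per cell cannot be told apart. When the arrays were instead given equal median signals, the median log2 ratio over tested probe sets went up by 0.29 with shMMSET#2 and by 0.35 with shMMSET#4. For probe sets well above the floor, those of NSD2 among them, this scaling raises the log2 ratio by 0.32 with shMMSET#2 and 0.38 with shMMSET#4. The NSD2 median of -0.48 with shMMSET#4 is thus mostly lost under it.

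No Notch member passed 2-fold with both hairpins in 1 direction. With shMMSET#2, JAG1 and one JAG2 probe set were lower and one HES1 probe set was higher. With shMMSET#4, another HES1 probe set was lower, and all 4 NOTCH2 probe sets were lower by 1.51-fold to 1.78-fold, short of the 2-fold threshold. RBPJ was within 1.55-fold of shLuc on its bright probe sets. HES1 differed more between the hairpins than any other member.

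Of the 27 probe sets, 17 from 8 genes were tested and 10 were too dim, and 6 of those 10 were at the floor on all 3 arrays. NOTCH1 and DLL1 had no tested probe set. Among the 17, NOTCH3 203238_s_at passed only through shMMSET#2 and JAG1 231183_s_at only through shMMSET#4, in each case the array with its highest signal. HES1 203395_s_at passed through both hairpin arrays but not through shLuc, where its signal of 58.6 was under the array median of 77.4. With shMMSET#2, 3 of the 17 were at least 2-fold lower and 1 was higher, against 11.9% and 5.66% of all 31527 tested probe sets. With shMMSET#4, 1 was lower and none was higher, against 13.4% and 5.58%. With both hairpins, none was lower and none was higher, against 5.94% and 2.41%. With limma, the hairpin arrays taken as 2 samples, no tested probe set on the array passed an adjusted p of 0.05, and at an unadjusted 0.05 no member was lower or higher, against 7.34% lower and 3.31% higher among all tested probe sets. At 1.5-fold, shMMSET#2 had 6 members lower and 2 higher, against 25.5% and 15.7%. At that threshold, 7 were lower with shMMSET#4 and 1 was higher, against 27.1% and 15%. With both hairpins 2 were lower and none was higher, against 15.7% and 7.52%. The median log2 ratio of the 17 was -0.16 with shMMSET#2 and -0.40 with shMMSET#4, beside -0.09 and -0.12 over all tested probe sets. The counts depend on the scaling, as do those of the whole array. With every array at the same median signal, shMMSET#2 had 1 member probe set lower and 2 higher, against 5.65% and 11.5% of all tested probe sets. There shMMSET#4 had 1 lower and 1 higher, against 5.89% and 12.6%. After quantile normalization the counts were 1 and 1 with shMMSET#2, against 7.76% each way, and 1 and 0 with shMMSET#4, against 8.23% each way.

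**Figure D1:**
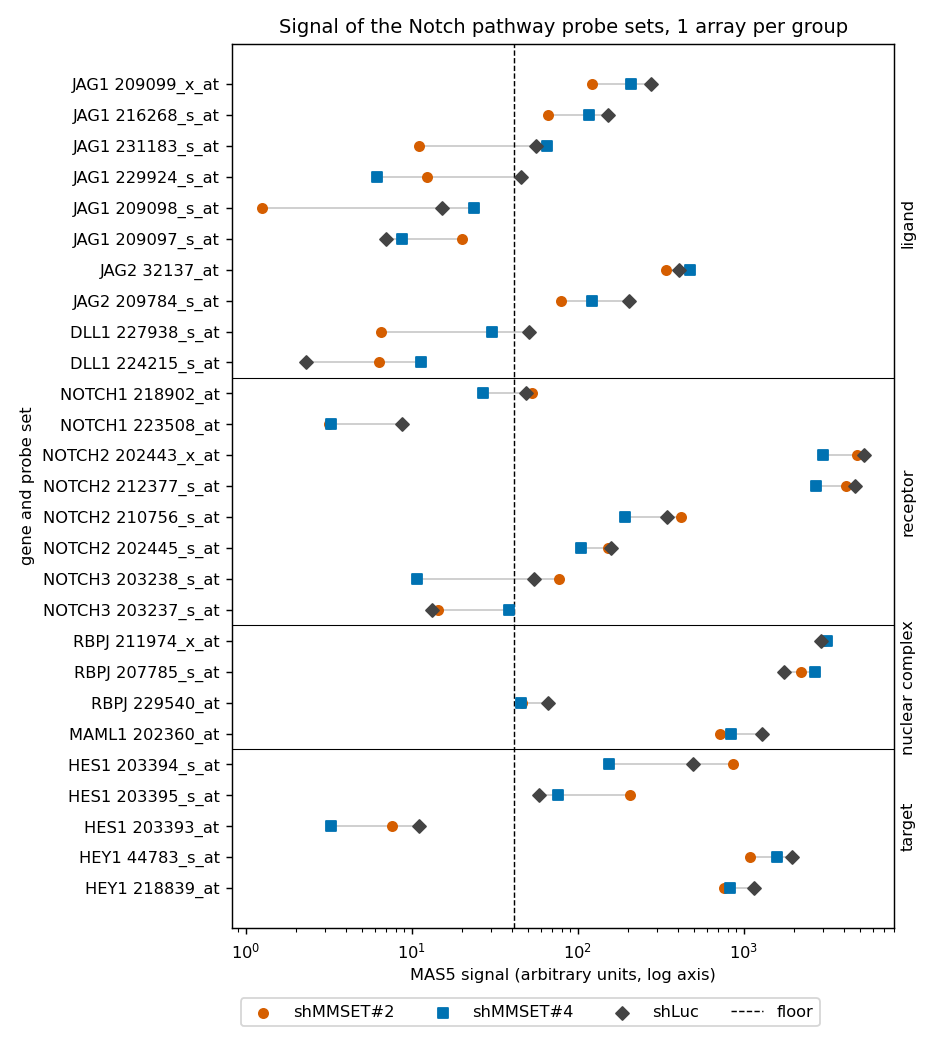
MAS5 signal (log axis) of the 27 Notch pathway probe sets on the shMMSET#2, shMMSET#4 and shLuc arrays, grouped by role, with a grey line joining the lowest and highest array and a dashed line at the floor of 41.2. On its brightest probe set, NOTCH2 has its lowest signal, 2998, with shMMSET#4, and 6 probe sets lie at or under the floor on every array.

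Among the ligands, JAG1, a Serrate-type ligand, was lower with shMMSET#2 on its brighter probe sets. Probe set 209099_x_at had a signal of 122 with shMMSET#2, 209 with shMMSET#4 and 274 with shLuc. Probe set 216268_s_at had 66.2, 117 and 152 in the same order. The order of the arrays was the same on both, lowest with shMMSET#2 and highest with shLuc. Relative to shLuc, the first was lower by 2.24-fold (shMMSET#2) and 1.31-fold (shMMSET#4). The second was 2.29-fold lower and 1.30-fold lower. All of these differences lie inside the hairpin spread at these signals, 2.36-fold and 2.92-fold. A dimmer probe set, 231183_s_at, had 65.2 with shMMSET#4 and 56.1 with shLuc, and was at the floor with shMMSET#2, which makes it at least 1.36-fold lower there. It passed the filter only through shMMSET#4, where it was highest, so its directions are not independent of the filter. The remaining 3 JAG1 probe sets did not pass the filter, and 2 of them were at the floor on all arrays. With all arrays scaled to the same median signal, the log2 ratio of the brightest JAG1 probe set was -0.84 with shMMSET#2 and -0.01 with shMMSET#4, so JAG1 was not called and its difference with shMMSET#4 was lost.

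JAG2, the other Serrate-type ligand, gave different results on its 2 probe sets. The brighter, 32137_at, had a signal of 341 with shMMSET#2, 473 with shMMSET#4 and 408 with shLuc. These are 1.20-fold lower and 1.16-fold higher than shLuc, within the hairpin spread of 2.31-fold. The dimmer, 209784_s_at, had 79.7 with shMMSET#2, 121 with shMMSET#4 and 204 with shLuc. It was lower by 2.56-fold (shMMSET#2) and 1.69-fold (shMMSET#4), within a spread of 2.66-fold. Both had their lowest signal with shMMSET#2, but they disagree on whether shMMSET#4 was above or below shLuc. DLL1, a Delta-type ligand, had no probe set above the filter. Its brighter probe set, 227938_s_at, had 50.9 with shLuc and was at the floor with both hairpins, with 6.54 for shMMSET#2 and 30.3 for shMMSET#4.

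Of the receptors, NOTCH2 was above the floor on all arrays, and its signals differed mainly with shMMSET#4. Probe set 202443_x_at had a signal of 4797 with shMMSET#2, 2998 with shMMSET#4 and 5294 with shLuc. Probe set 212377_s_at had 4133, 2704 and 4629 in the same order. The dimmer 210756_s_at had 415, 193 and 344, and 202445_s_at had 153, 105 and 158. The shMMSET#4 array was the lowest of the 3 on all 4 probe sets. With shMMSET#4 they were 1.77-fold, 1.71-fold, 1.78-fold and 1.51-fold lower than shLuc, with a mean log2 ratio of -0.75 (SD 0.11 over the 4 probe sets, which share 1 array and are not replicates). With shMMSET#2 the log2 ratios ran from -0.16 to 0.27. For the 2 brightest probe sets the hairpin spread is 1.82-fold, so that the differences stay just inside it. Under the scaling to the same median signal, the log2 ratio of the brightest probe set with shMMSET#4 was -0.44, and under quantile normalization it was -0.88. A further probe set, 227067_x_at, is annotated to NOTCH2 together with 4 NOTCH2NL genes, near copies of part of NOTCH2, and is not counted here. It had signals of 6735 with shMMSET#2, 6420 with shMMSET#4 and 7896 with shLuc, log2 ratios of -0.23 and -0.30. Whether the NOTCH2 probe sets also detect those copies was not tested.

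NOTCH1 and NOTCH3 were close to the floor. The brighter NOTCH1 probe set, 218902_at, had a signal of 53.0 with shMMSET#2, 26.7 with shMMSET#4 and 49.0 with shLuc, and the other was at the floor on all arrays. The brighter NOTCH3 probe set, 203238_s_at, had 76.7 with shMMSET#2, 10.8 with shMMSET#4 and 54.4 with shLuc, and the other was at the floor on all arrays. Relative to shLuc, NOTCH3 was 1.41-fold higher with shMMSET#2, while shMMSET#4 left it lower by at least 1.32-fold. The probe set passed the filter only through shMMSET#2, where it was highest, so its directions are not independent of the filter. Without the floor the shMMSET#4 log2 ratio would be -2.33, a value set by a signal of 10.8 under the floor. A difference between the groups was not measurable for these receptors at such signals.

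RBPJ, the DNA-binding partner of the cleaved receptor, was close to shLuc on its brightest probe set, 211974_x_at, with a signal of 3030 with shMMSET#2, 3179 with shMMSET#4 and 2895 with shLuc. Its next probe set, 207785_s_at, had 2199, 2684 and 1734 in the same order, that is 1.27-fold and 1.55-fold higher than shLuc. Both probe sets had their lowest signal with shLuc, and their differences lie inside the hairpin spread of 2.02-fold. The dim probe set 229540_at had 46.2, 45.7 and 66.4 and was not tested.

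MAML1, the Mastermind coactivator that bridges RBPJ and the receptor fragment, has 1 probe set, 202360_at. Its signal was 715 with shMMSET#2, 836 with shMMSET#4 and 1288 with shLuc. It was lower by 1.80-fold (shMMSET#2) and 1.54-fold (shMMSET#4), inside the hairpin spread of 2.15-fold. MAML1 and the JAG2 probe set 209784_s_at were the 2 members past 1.5-fold in the same direction with both hairpins. MAML1 had log2 ratios below 0 with both hairpins under every scaling tried, at -0.53 and -0.24 when the arrays had the same median signal. In the limma fit its unadjusted p was 0.0814 and its adjusted p was 0.48, over all tested probe sets.

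**Figure D2:**
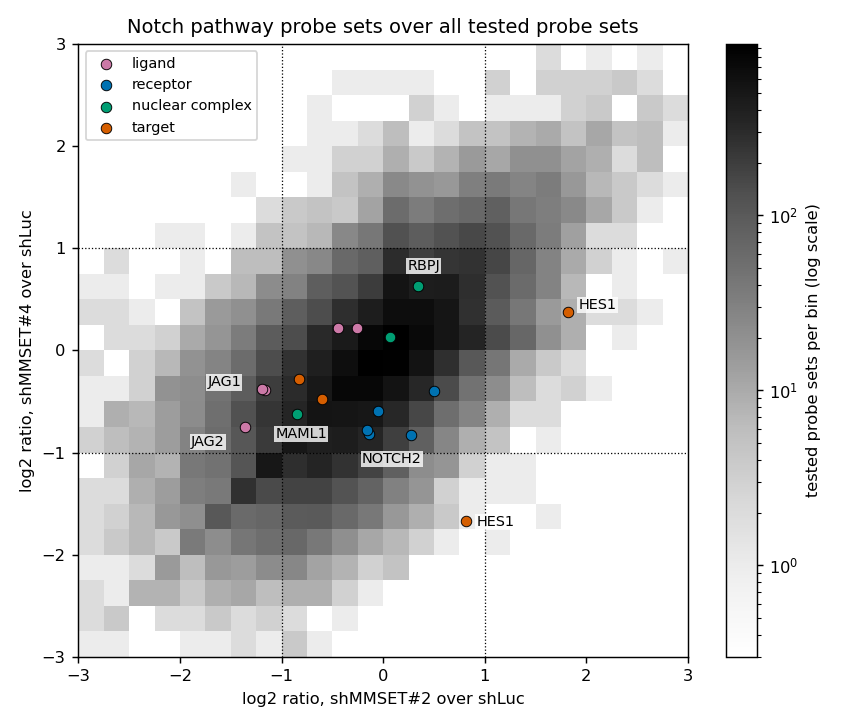
Log2 ratio to shLuc with shMMSET#2 (horizontal) and shMMSET#4 (vertical) for the 17 tested Notch pathway probe sets, coloured by role, over a density of all 31527 tested probe sets. Axes are cut at -3 and 3, and dotted lines mark 2-fold. No member lies beyond 2-fold in the same direction on both axes, and the HES1 probe set at 0.81 and -1.67 lies outside the main cloud.

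HES1 is the classical Notch target gene, and its promoter is a textbook example of RBPJ binding. The 250 bases before its start site are shown because HES1 is the member whose signal differed most between the hairpins. They come from RefSeq (GRCh38.p14, chr3:194135898-194136147, plus strand), and capitals mark TGGGAA, the core that RBPJ recognises.
HES1: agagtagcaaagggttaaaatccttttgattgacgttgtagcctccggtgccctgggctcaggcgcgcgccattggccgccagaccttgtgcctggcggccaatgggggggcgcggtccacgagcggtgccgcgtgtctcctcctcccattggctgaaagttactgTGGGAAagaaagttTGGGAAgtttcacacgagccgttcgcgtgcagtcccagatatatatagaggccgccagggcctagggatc

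This window holds 2 copies of TGGGAA on the plus strand, starting 84 and 70 bases before the start site. On either strand, TGGGAA occurs in 20.9% of 34943 such windows. The longer form GTGGGAA, which contains TGGGAA, occurs in 5.41% of them. Of the 9 genes of the HES and HEY family with a window in the table, 5 hold GTGGGAA and 6 hold TGGGAA. Of the 8 members with a window, HES1 and RBPJ hold either motif, and RBPJ has 5 windows in the table. Matches in 2 of the family and in RBPJ follow with 10 bases on each side, read 5' to 3' on the strand of the match, with GTGGGAA in capitals. They are given because the brightest probe sets of HES1 and HEY2 were at least 3-fold lower with shMMSET#4, though other probe sets of both genes were not, while the brightest of RBPJ was close to shLuc.
HES1, chr3:194136053-194136079, plus strand: gaaagttactGTGGGAAagaaagtttg
HEY2, chr6:125749409-125749435, minus strand: cagccgaggcGTGGGAAcgcggccgcg
RBPJ, chr4:26319663-26319689, plus strand: gtggaaggcgGTGGGAAggaggtgtag

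HES4, HES5 and HEYL also hold GTGGGAA and are not shown. HES7, lower by at least 2.39-fold with shMMSET#4, holds neither GTGGGAA nor TGGGAA in its window. A match is a description of the letters and not evidence of binding in these cells. CACNAG, the N box to which HES proteins bind, occurs 3 times in the HES1 window on either strand, and in 32.1% of all windows.

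The signals of HES1 went opposite ways with the hairpins on its brightest probe set. Probe set 203394_s_at had a signal of 864 with shMMSET#2, 155 with shMMSET#4 and 493 with shLuc. It was higher by 1.76-fold (shMMSET#2) and lower by 3.18-fold (shMMSET#4). Probe set 203395_s_at had 206, 75.9 and 58.6 in the same order, higher by 3.52-fold (shMMSET#2) and 1.29-fold (shMMSET#4). The probe sets thus agree that shMMSET#2 gave the highest signal, and disagree on whether shMMSET#4 lay above or below shLuc. Probe set 203395_s_at passed the filter through the hairpin arrays and not through shLuc, so its higher signals are not independent of the filter. The remaining probe set, 203393_at, was at the floor on all arrays. The 3.18-fold and 3.52-fold differences were the 2 member differences past the hairpin spread, which is 2.31-fold and 2.92-fold at these signals. Of all tested probe sets, 10.1% were past it with shMMSET#2 and 10.8% with shMMSET#4.

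The HES1 signal with shMMSET#4 was 5.58-fold lower than with shMMSET#2 on the brightest probe set and 2.72-fold lower on the second. A difference at least as large as the first, in either direction, was seen for 42 of the 31527 tested probe sets (0.133%), and one as large as the second for 2.84%. Among tested probe sets in the same bin of signal, the shares were 0.222% for the first and 7.04% for the second. HES1 was picked as the member that differed most between the hairpins, so these shares are descriptions and not tests. The log2 ratio of the brightest probe set with shMMSET#4 was -1.67, and it was -1.29 with all arrays at the same median signal and -1.51 after quantile normalization. Averaged over the 3 HES1 probe sets it was -0.43, short of 2-fold, with 203393_at counted as 0 because it was at the floor on all arrays. The higher signal with shMMSET#2 was 0.81, 1.13 and 0.86 on the log2 scale for the same probe set under the deposited, same-median and quantile scalings.

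HEY1, the other target gene among the members, was lower than shLuc on both probe sets in the deposited scaling, by less than 2-fold. Probe set 44783_s_at had a signal of 1089 with shMMSET#2, 1590 with shMMSET#4 and 1937 with shLuc. Probe set 218839_at had 760, 827 and 1151 in the same order. On both, the order of the arrays was the same. With shMMSET#2 they were 1.78-fold and 1.51-fold lower, and with shMMSET#4 they were 1.22-fold and 1.39-fold lower, inside the hairpin spread of 2.02-fold and 2.15-fold. Scaling to the same median signal left the brighter probe set at -0.51 with shMMSET#2 and turned it to 0.10 with shMMSET#4.

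**Figure D3:**
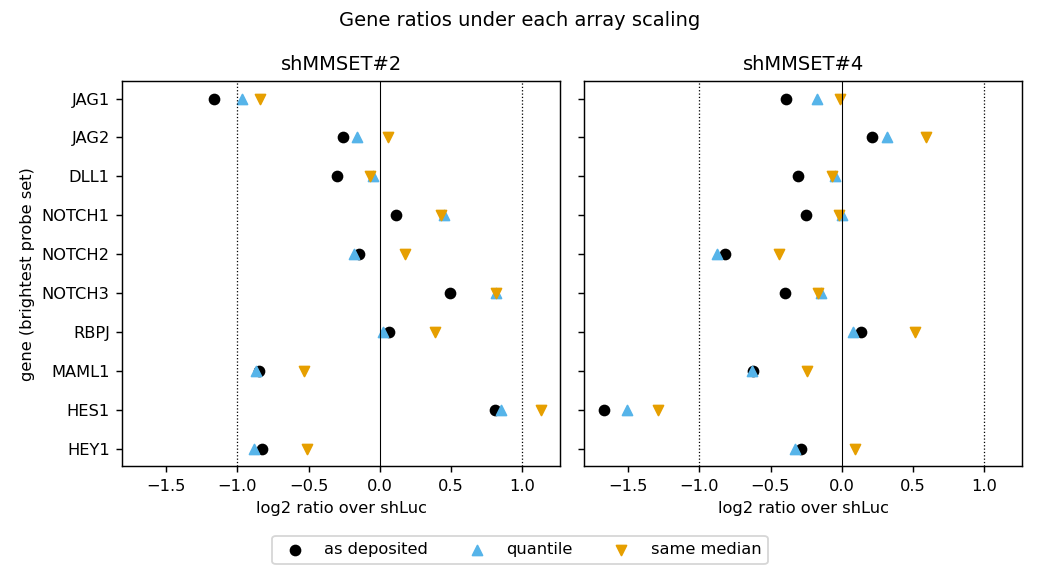
Log2 ratio to shLuc of the brightest probe set of each of the 10 genes, with shMMSET#2 in the left panel and shMMSET#4 in the right, as deposited, after quantile normalization and after scaling all arrays to the same median signal. Dotted lines mark 2-fold. HES1 with shMMSET#4 stays beyond 2-fold in all 3 (-1.67, -1.51 and -1.29), while JAG1 with shMMSET#2 is beyond it as deposited (-1.16) and short of it in the others (-0.97 and -0.84).

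The wider pathway was followed in 9 lists of 71 genes by role, each gene on its brightest probe set. Of these, 66 had a probe set with a single symbol and 57 were tested. Leaving out the 10 members, 49 were tested, and none was at least 2-fold lower or higher with both hairpins, against 4.35% and 2.83% of the 13296 tested genes. For shMMSET#2, 5 of the 49 were lower and 1 was higher, against 10.7% and 5.69%. For shMMSET#4 there were 5 lower and 3 higher, against 8.95% and 6.74%. At 1.5-fold, 19 were lower and 5 higher with shMMSET#2, against 22.5% and 16.2%. With shMMSET#4 it was 15 lower and 9 higher, against 20.6% and 17.3%. With both, 12 were lower and 2 higher, against 11.9% and 8.6%. The 12 include DTX1 and HEYL, which passed the filter only through shLuc, so their direction follows from the filter. The median log2 ratio of the 49 was -0.18 with shMMSET#2 and -0.21 with shMMSET#4, beside -0.04 and -0.02 over all tested genes. With all arrays at the same median signal, these medians became 0.03 and 0.17, beside 0.25 and 0.34 over all tested genes.

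The HES and HEY family was the list with the lowest median with shMMSET#4. Of its 6 tested genes, HES1, HES7 and HEY2 were past 2-fold, lower, with shMMSET#4, and HES6 with shMMSET#2. Over all tested genes, 8.95% were past 2-fold, lower, with shMMSET#4 and 10.7% with shMMSET#2. HES1 counts by its brightest probe set, while its probe set 203395_s_at was 1.29-fold higher with shMMSET#4. HEY2, a repressor related to HEY1, had a signal of 419 with shMMSET#2, 142 with shMMSET#4 and 684 with shLuc, and was 1.63-fold and 4.80-fold lower. Its second probe set gave log2 ratios of -0.31 and -1.32. HES7, known in the mouse as an oscillator of the segmentation clock, had 134, 35.6 and 98.7, higher by 1.35-fold (shMMSET#2) and lower by at least 2.39-fold (shMMSET#4). HES6, chosen after its values were seen, had 393, 850 and 912 and was 2.32-fold and 1.07-fold lower. Its protein is known to counteract HES1. The list median was -0.77 with shMMSET#2 and -0.92 with shMMSET#4, and -0.45 and -0.62 with all arrays at the same median signal. HEYL, which counts in these medians, had signals of 45.1 with shMMSET#2, 57.5 with shMMSET#4 and 86.6 with shLuc. It passed the filter only through shLuc, so its lower values with the hairpins follow from the filter. HES4 and HES5 were at the floor on all arrays.

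Among the genes for inhibitors and turnover, no gene was past 2-fold with both hairpins. Of 13 tested, 2 were lower with shMMSET#2 and 1 with shMMSET#4, against 10.7% and 8.95% of all tested genes. None was higher with either, against 5.69% and 6.74%. NRARP, itself a Notch target whose product blocks the nuclear complex, had a signal of 89.0 with shMMSET#2, 129 with shMMSET#4 and 206 with shLuc, 2.32-fold and 1.60-fold lower. NUMB, which encodes an adaptor that removes Notch receptors from the membrane, had 93.8, 45.6 and 180, and was 1.92-fold and 3.95-fold lower on the 1 probe set it has here. DTX2, a ubiquitin ligase of the Deltex family chosen after its values were seen, was 2.25-fold and 1.71-fold lower. Past 1.5-fold with both hairpins, lower, were NUMB, ITCH, DTX1, DTX2 and NRARP, against 11.9% of all tested genes. DTX1 passed the filter only through shLuc, with a signal of 77.6, and was at the floor on both hairpin arrays, so its direction follows from the filter. With all arrays at the same median signal, NRARP had a log2 ratio of -0.29 with shMMSET#4, short of 1.5-fold.

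The genes that cut the receptors did not share a direction. Of 8 tested, FURIN, the protease that makes the first cut in the secretory pathway, was the 1 past 2-fold, with a signal of 87.0 with shMMSET#2, 28.6 with shMMSET#4 and 171 with shLuc. That is 1.97-fold lower and at least 4.15-fold lower. ADAM10, the main protease that sheds the bound receptor, was chosen after its values were seen. It had a signal of 14318 with shMMSET#2, 13793 with shMMSET#4 and 7299 with shLuc, 1.96-fold and 1.89-fold higher and past the hairpin spread of 1.82-fold with both hairpins. ADAM17, a related protease also chosen afterwards, had 1611, 1530 and 2856, 1.77-fold and 1.87-fold lower. Each of these ADAM genes has 3 probe sets, all higher than shLuc with both hairpins for ADAM10 and all lower for ADAM17. Of the gamma-secretase genes PSEN2, NCSTN, APH1A, APH1B and PSENEN, none was past 2-fold, with NCSTN the farthest at 1.33-fold and 1.91-fold higher on the brighter of its probe sets, while the dimmer was lower at log2 ratios of -0.13 and -0.92.

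Among genes that add sugars to the receptors, POFUT1, which adds O-linked fucose, was lower by 2.07-fold (shMMSET#2) and 1.32-fold (shMMSET#4). MFNG, a Fringe glycosyltransferase, was 1.33-fold and 2.05-fold higher. These were the 2 of 4 tested genes past 2-fold with either hairpin. Among ligand ubiquitin ligases, NEURL1B was 1.67-fold and 2.99-fold lower, and MIB1, which drives ligand endocytosis, was within 1.13-fold of shLuc with both. Of the remaining ligands, DLL3 had a signal of 83.0 with shMMSET#4 and was at the floor with shMMSET#2 and shLuc. It passed the filter only through the shMMSET#4 array, so its direction there, at least 2.01-fold higher, follows from the filter. The log2 ratio averaged over its 4 probe sets was 0.17.

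In the nuclear complex, MAML2 was lower by 2.16-fold (shMMSET#2) and 1.22-fold (shMMSET#4). MAML3 was 1.72-fold and 1.53-fold lower, and was chosen after its values were seen. In the deposited scaling the brightest probe sets of all 3 Mastermind genes were lower than shLuc with both hairpins, but with all arrays at the same median signal MAML2 turned to 0.09 with shMMSET#4. KAT2B, a histone acetyltransferase recruited by the complex, was higher by 2.51-fold (shMMSET#2) and 1.05-fold (shMMSET#4). Among 7 tested corepressor genes, BEND6, whose product binds RBPJ, had a signal of 37.3 with shMMSET#2, 181 with shMMSET#4 and 69.4 with shLuc. It was lower by at least 1.68-fold (shMMSET#2) and higher by 2.61-fold (shMMSET#4). BEND6 passed the filter only through the shMMSET#4 array, so its higher signal there is not independent of the filter. SPEN, a corepressor at RBPJ chosen after its values were seen, was 1.69-fold and 1.75-fold lower.

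**Figure D4:**
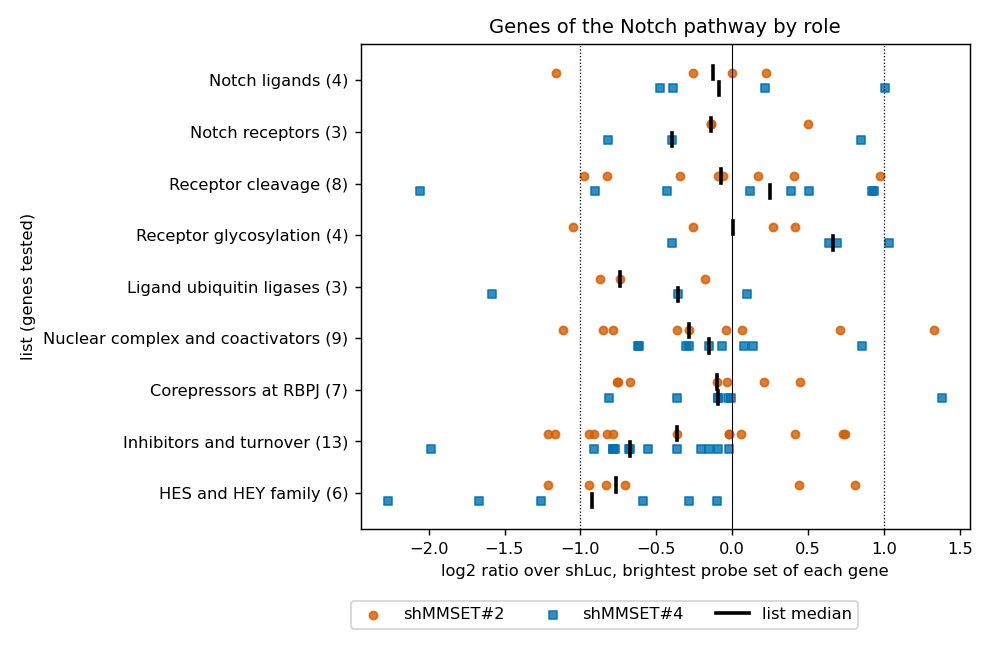
Log2 ratio to shLuc of the tested genes in the 9 Notch pathway lists, on the brightest probe set of each gene, with shMMSET#2 above shMMSET#4 in each row. Black bars are list medians, dotted lines mark 2-fold, and the number of tested genes stands after each list name. The HES and HEY family has medians of -0.77 and -0.92, and the genes for receptor cleavage spread to both sides of 0.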

How the data were processed

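Expression was measured on 3 arrays, 1 each for shMMSET#2, shMMSET#4 and shLuc, and the labels gave the groups. What the authors deposited is a linear MAS5 intensity for each probe set. MAS5 comes from the submitters' processing notes, with version and settings not given in the sources used here. On each array the 2% trimmed mean was 500.1, and the deposited scaling was kept. The design text names a smaller array of the same family, but the table holds 54675 probe sets with the identifiers of HG-U133 Plus 2.0, and the platform annotation of that array was used, with symbols updated by Entrez identifier to RefSeq (GRCh38.p14). After 62 control probe sets were left out, 41091 had 1 symbol, 1801 had several and 11721 were unnamed here.

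Signals were floored at the 40th percentile (41.2) and log2-transformed. The brightest probe set by mean signal stood for a gene. Calls were made by size at 2-fold, without p-values, and limma (Benjamini-Hochberg adjustment over all tested probe sets) was an alternative. Precision is limited by how few arrays there are. The genes named by rule are the 10 members, pathway genes past 2-fold with both hairpins, and up to 2 per list past 2-fold with either. Other pathway genes in the text, such as ADAM10, NCSTN and MIB1, were named outside this rule. Some of them are marked as chosen after their values were seen. The members and lists were chosen with earlier results of these data known. Calling and limma were run on simulated data with less noise than the hairpin spread seen here. The simulation checked the code and does not give an error rate for these arrays. Python 3.11.15, numpy 2.4.6, pandas 2.3.3, R 4.3.3 and limma 3.58.1 were used. Alternatives were the scaling, the floor, the filter, the threshold, the probe set of a gene and limma. No genome coordinates of probe sets are given, since the values carry no build.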

Additional observations from a re-analysis of the deposited data

Results flagged for a closer look

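Differences in opposite directions with the hairpins, each past 1.5-fold from shLuc, were found for 2 probe sets. The HES1 probe set 203394_s_at had a log2 ratio of 0.81 with shMMSET#2 and -1.67 with shMMSET#4, a difference of -2.48 for shMMSET#4 over shMMSET#2. BEND6 had -0.75 and 1.38 on its brightest probe set, a difference of 2.13, with the shMMSET#2 signal at the floor. This probe set passed the filter only through shMMSET#4, the array where it was highest. There was 1 array per group, so neither difference was tested.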

How the results depend on the processing

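No paired analysis was possible because each group has 1 array. The 2-fold counts for both hairpins, 0 lower and 0 higher, were 0 with both scalings, with no floor and with no filter, and 2 were lower at 1.5-fold. The higher floor, the stricter filter and the 3-fold threshold could not raise them. The limma fit says nothing of stability, since its smallest adjusted p over the whole array was 0.465 and no member had an unadjusted p under 0.05. The 3 probe sets lower with shMMSET#2 (11.9% of all tested) became 1 with the same median signal (5.65%), 1 with quantile normalization (7.76%), 4 with no floor (13.8%), 1 when the floor was raised to the 60th percentile (4.98%), 6 at 1.5-fold (25.5%) and 0 at 3-fold (2.61%). The 1 higher with shMMSET#2 (5.66%) became 2 with the same median signal (11.5%), 2 at 1.5-fold (15.7%) and 0 with the higher floor (3.21%). The 1 lower with shMMSET#4 (13.4%) became 2 with no floor (15.4%) and 7 at 1.5-fold (27.1%). The 0 higher (5.58%) became 1 with the same median signal (12.6%) and 1 at 1.5-fold (15%). Of the 20 gene ratios (10 genes with 2 hairpins), the 2 past 2-fold became 4 with no floor, 1 with quantile normalization and 0 when all probe sets of a gene were averaged. That average takes in JAG1 209098_s_at and 209097_s_at and HES1 203393_at. These were at the floor on all arrays, so their ratio is fixed at 0 and draws both averages towards 0. The count was also 0 when cross-matching probe sets (_x_at and _s_at) were dropped. That leaves JAG1, DLL1, NOTCH2 and NOTCH3 with no probe set and HES1 with one at the floor, so both calls are lost by construction. The causes of the other shifts were not tested. Signals near the floor limit DLL1, NOTCH1 and NOTCH3.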
